A study of Mus musculus with 4 samples.

Results

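Expression of genes of glycolysis and of the response to low oxygen was examined in mouse myeloid-derived suppressor cells (MDSCs), with lnc-C/EBPβ knocked down or expressed exogenously. The list held 43 genes, listed by their known roles, in 6 role groups. It was chosen with earlier results of these data known, so no comparison of its members with all genes below is independent of these data. Of these, 40 had at least 1 microarray probe set annotated to that gene alone, out of 18194 such genes in all. Each gene was read from the probe set of its own with the highest mean log2 value over the 4 arrays. Bnip3l lay only on probe sets shared by several genes, and Gpi1 and Eno1 were not matched to a probe set, so these 3 genes were not analysed here.

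Lentivirus was used to infect bone marrow cells from C57BL/6 mice, which were then cultured with GM-CSF and IL-6 for 4 days, a treatment that turns them into MDSCs, a mixed population of immature neutrophil-like and monocyte-like cells. There were 4 groups, each a single culture on a single Affymetrix mouse array. kdLNC cells received a lentivirus with a short hairpin RNA against the long noncoding RNA that the labels call lncMDSC, which the study calls lnc-C/EBPβ, and kdNC cells received the control hairpin lentivirus, a luciferase hairpin in the methods. oeLNC cells received a lentivirus that expresses lncMDSC, and oeNC cells received the overexpression control lentivirus. No probe set was annotated to lncMDSC by name, so the knockdown and the overexpression were not checked on these 4 arrays and rest here on the labels. The study itself reports qRT-PCR of lnc-C/EBPβ in MDSCs treated with its lentivirus. The share of infected cells in these 4 cultures was not analysed here, and their makeup was read only from marker genes.

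Values are linear RMA intensities, and differences are log2 of the first named group over the second, so that a difference of 1 is a doubling. A gene was counted as higher or lower when the groups differed at least 1.5-fold. With 1 array per group there was no replicate error, no test could be made and no p-value is given, so every count is a description of these 4 arrays and is set beside the percentage of all genes past the same fold. That percentage was taken over the 11345 genes whose mean log2 intensity was above 4.20, the median of all probe sets, and 38 of the 40 members were above it. Eno2 and P4ha2 were below it.

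Glycolysis splits glucose into pyruvate in the cytosol and yields ATP without oxygen. Glucose enters through transporters, hexokinases trap it as a phosphate, phosphofructokinase commits it to the pathway, and lactate dehydrogenase with a monocarboxylate exporter disposes of the product when mitochondria do not take it. HIF-1, a dimer of Hif1a and Arnt, raises transcription of many of these genes. In the presence of oxygen, the prolyl hydroxylases encoded by Egln1, Egln2 and Egln3 mark Hif1a for degradation through Vhl, and Hif1an blocks its coactivator binding. Egln1 and Egln3 are themselves HIF targets, so their RNA levels are often read as part of the hypoxia response. Neutrophils and other myeloid cells depend heavily on glycolysis, and HIF-1 is known to act in their survival and in the suppressive function of MDSCs.

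HIF binds the core letters ACGTG or GCGTG, and the promoters of the members were searched for them. The 250 bases before the annotated start were read from RefSeq (GRCm38.p6), where 38 of the 40 genes matched, with 55 promoters in all. Slc2a3 and Ndrg1 were not matched. ACGTG or GCGTG stood on either strand in 42 of the 55 promoters (76.4%), against 54.7% of the 11420 promoters of genes above the intensity limit and 44.0% of the 21263 promoters of all protein-coding genes. ACGTG alone was in 49.1% of the member promoters and in 21.4% of promoters above the intensity limit (17.8% of all). GCGTG was in 50.9% of the member promoters and in 43.7% above the limit (33.8% of all). The palindrome CACGTG, which reads as ACGTG on both strands and is also the site of MYC and USF factors, was in 9.09% of the member promoters and in 8.33% of those above the limit. These counts describe letters in a window and are no measure of binding. The list was drawn up from genes of these roles, many of them known HIF targets, so its higher share is no result about these cells. The 7 promoters below belong to members that were lower in kdLNC cells, and they are shown 5′ to 3′ on the strand of the gene, ending at the base before the start. Capitals mark ACGTG and GCGTG on either strand, so that they also appear as CACGT and CACGC.
Egln3 (chr12:54203875-54204124, minus strand): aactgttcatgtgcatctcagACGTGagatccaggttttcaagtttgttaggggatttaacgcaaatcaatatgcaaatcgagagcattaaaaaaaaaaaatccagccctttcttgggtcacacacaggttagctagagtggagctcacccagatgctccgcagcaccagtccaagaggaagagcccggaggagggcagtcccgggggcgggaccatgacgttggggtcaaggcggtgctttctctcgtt
Egln1 (chr8:124949255-124949504, minus strand): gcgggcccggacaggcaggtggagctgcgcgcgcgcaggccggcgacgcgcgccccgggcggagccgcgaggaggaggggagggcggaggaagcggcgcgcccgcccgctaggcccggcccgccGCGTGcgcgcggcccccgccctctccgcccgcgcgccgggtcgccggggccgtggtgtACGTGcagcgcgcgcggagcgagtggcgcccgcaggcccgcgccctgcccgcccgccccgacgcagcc
Aldoc (chr11:78322823-78323072, plus strand): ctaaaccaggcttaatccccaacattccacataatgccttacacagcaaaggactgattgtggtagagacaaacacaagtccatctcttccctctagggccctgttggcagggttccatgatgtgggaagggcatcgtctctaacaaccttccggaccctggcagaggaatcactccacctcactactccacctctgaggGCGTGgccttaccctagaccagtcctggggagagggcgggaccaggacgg
Ankrd37 (chr8:45999851-46000100, minus strand): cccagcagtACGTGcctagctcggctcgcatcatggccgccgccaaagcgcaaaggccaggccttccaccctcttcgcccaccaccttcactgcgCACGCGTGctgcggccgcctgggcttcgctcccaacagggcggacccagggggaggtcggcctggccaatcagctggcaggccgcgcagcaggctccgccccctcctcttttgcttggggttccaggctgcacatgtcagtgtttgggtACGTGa
Bnip3 (chr7:138909507-138909756, minus strand): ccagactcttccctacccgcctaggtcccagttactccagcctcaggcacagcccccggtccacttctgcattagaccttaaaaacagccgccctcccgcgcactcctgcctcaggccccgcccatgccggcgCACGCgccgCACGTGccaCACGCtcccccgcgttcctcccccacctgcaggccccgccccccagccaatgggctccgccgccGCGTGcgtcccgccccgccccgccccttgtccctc
P4ha1 (chr10:59323046-59323295, plus strand): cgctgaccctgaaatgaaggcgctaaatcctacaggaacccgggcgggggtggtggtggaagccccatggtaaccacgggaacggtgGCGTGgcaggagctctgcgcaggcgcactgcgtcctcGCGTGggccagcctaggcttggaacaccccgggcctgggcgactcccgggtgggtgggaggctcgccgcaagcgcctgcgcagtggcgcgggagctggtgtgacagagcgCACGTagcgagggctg
Ddit4 (chr10:59951771-59952020, minus strand): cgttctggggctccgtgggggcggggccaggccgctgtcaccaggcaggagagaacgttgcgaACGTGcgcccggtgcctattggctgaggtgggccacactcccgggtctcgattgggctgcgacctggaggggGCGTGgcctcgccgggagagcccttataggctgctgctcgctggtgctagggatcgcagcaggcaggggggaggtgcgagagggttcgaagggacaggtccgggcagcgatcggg
The number and place of the motifs differed among these promoters. Egln3 held a single one, 229 bases before its start. Ankrd37 held 4, the nearest of them 6 bases before the start, and Bnip3 held 5, of which 4 lay between 117 and 99 bases before the start. The Bnip3 matches at 108 and 107 bases are both strands of 1 CACGTG, counted separately. The Ankrd37 matches at 155 and 152 bases overlap. Of Aldoc's 2 annotated starts, the first is shown. All 8 promoters of these 7 genes held at least 1 of the motifs, against 76.4% of all member promoters and 54.7% of promoters above the intensity limit. The median difference of kdLNC over kdNC was -0.39 for the 34 members with a motif in at least 1 promoter and -0.35 for the 4 members without one, Tpi1, Eno2, Hif1an and Vhl.

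Most members were lower in lnc-C/EBPβ knockdown MDSCs than in their control. Of the 40 genes, 33 (82.5%) were lower in kdLNC than in kdNC by any amount, against 58.6% of all genes above the intensity limit, and the median difference was -0.39, against -0.046 for all genes. Lower by at least 1.5-fold were 8 members (20%), against 1.84% of all genes. These were Egln3, Slc2a3, Aldoc, Ankrd37, Egln1, P4ha1, Ddit4 and Bnip3. Pfkfb3 was the single member at least 1.5-fold higher (2.5% of members, against 2.25% of all genes). By 2-fold, the fold named in the methods, 2 members were lower, Egln3 and Slc2a3, against 0.353% of all genes, and 0 members were higher, against 0.450% of all genes. Bnip3, at -0.59, was just inside the 1.5-fold limit and Tpi1, at -0.58, just outside it. Markers of mature neutrophils were lower in the same array, in 7 of 9 measured genes by at least 1.5-fold (77.8%, against 1.84% of all genes). In bulk samples such as these, fewer cells of a type and less RNA per cell cannot be told apart.

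Overexpression did not give the mirror image of this for the list as a whole. The median difference of oeLNC over oeNC was 0.076, against -0.020 for all genes, and 25 of the 40 members were higher in oeLNC than in oeNC by any amount and 15 lower, against 52.7% lower of all genes. Egln3 was the single member at least 1.5-fold higher, which is 2.5% of members, against 3.23% of all genes, and it was also 2-fold higher, against 0.264% of all genes, though not with each array centred on its median (0.95). Lower by at least 1.5-fold were 3 members (7.5%), Ddit4, Vegfa and Pfkfb3, against 5.26% of all genes, and 0 members were 2-fold lower, against 0.723% of all genes. With that centring Ddit4 (-1.02) and Vegfa (-1.004) were 2-fold lower, and 20 of the 40 members were lower by any amount. The share of members past 1.5-fold in this pair was thus near that of all genes.

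**Figure D1:**
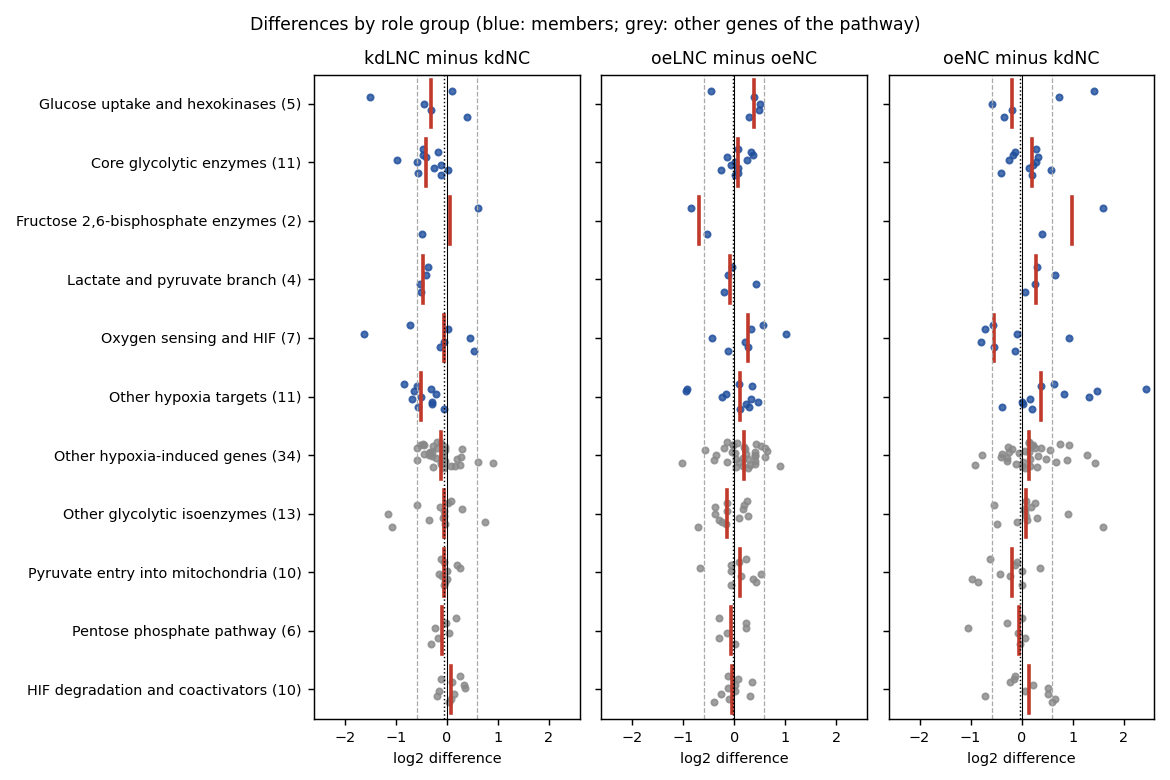
Log2 differences of the 40 members in the 3 pairs of arrays, 1 point per gene, grouped by role, with the number of genes in brackets. Blue points are members, grey points the other pathway genes, red bars the median of each group, dashed lines 1.5-fold and the dotted line the median of all genes above the intensity limit. All 11 other hypoxia targets and all 4 genes of the lactate and pyruvate branch lie below 0 in kdLNC over kdNC, against 58.6% of all genes. The points of oeLNC over oeNC lie on both sides of 0.

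Oxygen sensing held the member with the largest difference in the knockdown pair, and also in the overexpression pair as deposited, though not there with each array centred on its median. Egln3, the hydroxylase most readily induced by hypoxia, had an intensity of 276 in kdLNC, 848 in kdNC, 1619.7 in oeLNC and 799 in oeNC. kdLNC was the lowest of the 4 arrays and oeLNC the highest, while the 2 controls lay close together (difference of oeNC over kdNC, -0.087). Egln3 was 3.07-fold lower in kdLNC than in kdNC (log2 difference -1.62) and 2.03-fold higher in oeLNC than in oeNC (1.02). A second, dimmer probe set of Egln3 had differences of -1.48 in the knockdown pair and 1.20 in the overexpression pair, though there its 2 controls were apart, at 85.0 in oeNC and 191 in kdNC. Egln1, the main hydroxylase of Hif1a in normal oxygen, had 130.3 in kdLNC, 214 in kdNC, 215 in oeLNC and 145 in oeNC. It was lower in kdLNC than in kdNC (-0.71) and, by less than 1.5-fold, higher in oeLNC than in oeNC (0.57). The other Egln1 probe set had -0.55 and -0.13 in these pairs. kdLNC and oeNC, at 130.3 and 145, were near each other.

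The other components of this group did not follow Egln3. Hif1a, the regulated subunit of HIF-1, had 1949.9 in kdLNC, 1414 in kdNC, 1976 in oeLNC and 2679 in oeNC. Its difference was 0.46 for kdLNC over kdNC and -0.44 for oeLNC over oeNC, both under 1.5-fold and in the opposite direction to Egln3. Of 2 further Hif1a probe sets above the limit, one had 0.42 and 0.15 and the other -0.05 and -0.50, so the direction depended on the probe set in both pairs. Arnt, the constant partner of Hif1a, had 178 in kdLNC, 123 in kdNC, 103 in oeLNC and 112 in oeNC, with differences of 0.53 and -0.12, and its 2 further probe sets above the limit had -0.24 and -0.55, and 0.27 and 0.05. RNA of Hif1a does not measure its protein, which is controlled by degradation. Egln2, the hydroxylase not induced by hypoxia, had 278 in kdLNC, 273 in kdNC, 210.4 in oeLNC and 167 in oeNC. Hif1an, the asparaginyl hydroxylase, had 81.6 in kdLNC, 84.7 in kdNC, 56.4 in oeLNC and 48.8 in oeNC, and Vhl, the substrate receptor of the ubiquitin ligase, had 139 in kdLNC, 152 in kdNC, 125 in oeLNC and 104 in oeNC. Between kdLNC and kdNC these 3 genes differed by -0.13 to 0.029. In the overexpression pair they were 0.21 to 0.33 higher, and all 3 were lower in oeNC than in kdNC, by -0.80 to -0.54. A second Hif1an probe set gave -0.058 in the overexpression pair and 0.32 for oeNC over kdNC.

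Among glucose transporters, the 2 members parted. Slc2a3, the high-affinity transporter GLUT3, had 749 in kdLNC, 2116 in kdNC, 4607 in oeLNC and 3519 in oeNC. kdLNC was far below the other 3 arrays, by 2.83-fold against kdNC (log2 difference -1.50), and oeLNC was 1.31-fold above oeNC (0.39), under the limit. This probe set can match several transcripts, and so can the next brightest, which gave -1.71 and 0.58. Another probe set, below the intensity limit, gave -1.63 in the knockdown pair, and the dimmest gave -0.09. Slc2a1, the transporter GLUT1 of most cells, had 1359 in kdLNC, 1267 in kdNC, 2475 in oeLNC and 3405 in oeNC. Its difference of kdLNC over kdNC was 0.10, but the 2 other Slc2a1 probe sets, both above the intensity limit, gave -0.18 and -0.43, with kdLNC lowest. At all 3, oeLNC and oeNC were both higher than kdLNC and kdNC.

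Hexokinases phosphorylate glucose in the first step of glycolysis, and none of the 3 passed the 1.5-fold limit in either pair. Of all genes, 4.09% passed it in the knockdown pair and 8.50% in the overexpression pair. Hk1, the form of most tissues, had 626 in kdLNC, 858 in kdNC, 817 in oeLNC and 574 in oeNC. Hk2, the form induced by HIF and by growth signals, had 417 in kdLNC, 518 in kdNC, 641 in oeLNC and 456 in oeNC. Hk3, the myeloid form, had 845 in kdLNC, 639 in kdNC, 615 in oeLNC and 502 in oeNC. Hk1 and Hk2 were lower in kdLNC (-0.46 and -0.31) and higher in oeLNC (0.51 and 0.49) than in their controls, whereas Hk3 was higher in both (0.40 and 0.29).

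The core enzymes between glucose 6-phosphate and pyruvate were lower in kdLNC than in kdNC in 10 of 11 genes (90.9%, against 58.6% of all genes). The median was -0.40, and the amounts were small. Aldoc, an aldolase most abundant in brain and induced by hypoxia, was the only one of the 11 past 1.5-fold (9.09%, against 1.84% of all genes lower). Its intensity was low, at 29.3 in kdLNC, 57.7 in kdNC, 58.0 in oeLNC and 48.9 in oeNC, with kdLNC 1.97-fold below kdNC (log2 difference -0.98) and oeLNC 0.24 above oeNC. Its other probe set, below the intensity limit, gave -0.11. Aldoa, the main aldolase of muscle and red blood cells, had 2695 in kdLNC, 3558 in kdNC, 4046 in oeLNC and 4471 in oeNC. All 5 Aldoa probe sets were lower in kdLNC than in kdNC, by -0.11 to -0.44, and in the overexpression pair all 5 were below 0 as well, by -0.088 to -0.28. Tpi1, triosephosphate isomerase, had 1129 in kdLNC, 1690.0 in kdNC, 2069 in oeLNC and 2046 in oeNC, and its 2 other probe sets gave -0.36 and 0.09 in the knockdown pair.

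Phosphofructokinase catalyses the committed step and has 3 isoforms. Pfkl, the liver form, had 153 in kdLNC, 212 in kdNC, 269 in oeLNC and 257 in oeNC. Pfkp, the platelet form, had 356 in kdLNC, 491 in kdNC, 564 in oeLNC and 435 in oeNC, and Pfkm, the muscle form, had 38.7 in kdLNC, 43.5 in kdNC, 49.7 in oeLNC and 39.8 in oeNC. For each isoform kdLNC was the lowest array and oeLNC the highest, with differences in the knockdown pair of -0.47 for Pfkl, -0.46 for Pfkp and -0.17 for Pfkm. In the overexpression pair, they were 0.066, 0.38 and 0.32 in the same order.

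The enzymes of the later steps differed little between the arrays of a pair. Gapdh, which oxidises glyceraldehyde 3-phosphate, was read from a control probe set at its 3′ end and had 4501 in kdLNC, 4878 in kdNC, 5403 in oeLNC and 5676 in oeNC. Its other 2 control probe sets, at the 5′ end and in the middle, gave -0.30 and -0.36 for kdLNC over kdNC. Pgk1, the first enzyme of the pathway to yield ATP, had 3829.7 in kdLNC, 4566 in kdNC, 5309.9 in oeLNC and 5074 in oeNC. Pkm, which makes pyruvate, had 1244 in kdLNC, 1339 in kdNC, 1555 in oeLNC and 1534 in oeNC. At these probe sets kdLNC was the lowest array and the difference of kdLNC over kdNC lay between -0.25 and -0.11. The 2 other Pgk1 probe sets gave 0.076 and 0.018, with kdNC lowest. Pgam1, phosphoglycerate mutase, had 998 in kdLNC, 980.3 in kdNC, 1213 in oeLNC and 1454 in oeNC and was the one core enzyme not lower in kdLNC than in kdNC (0.026). Eno2, the neuronal enolase, was dim, with 9.73 in kdLNC, 14.4 in kdNC, 11.4 in oeLNC and 10.8 in oeNC, and below the intensity limit.

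Fructose 2,6-bisphosphate is the strongest activator of phosphofructokinase, and it is made and removed by the enzymes of the Pfkfb family. Pfkfb3, the form with the highest kinase activity, had 364 in kdLNC, 239 in kdNC, 402 in oeLNC and 719 in oeNC. kdNC was the lowest and oeNC the highest of the 4 arrays. Pfkfb3 was 1.52-fold higher in kdLNC than in kdNC (0.61). It was 1.79-fold lower in oeLNC than in oeNC (-0.84), the opposite of Egln3 in both pairs. These differences did not hold at the second probe set of Pfkfb3, where they were -0.31 and -0.05. Pfkfb4 had 84.8 in kdLNC, 118 in kdNC, 107 in oeLNC and 155 in oeNC, and was lower in kdLNC (-0.48) and in oeLNC (-0.53) than in their controls.

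All 4 genes of the lactate and pyruvate branch were lower in kdLNC than in kdNC, by -0.38 to -0.52, against 58.6% of all genes. None passed 1.5-fold, against 1.84% of all genes lower by that fold. Ldha, the lactate dehydrogenase subunit that favours lactate, had 1259.8 in kdLNC, 1636 in kdNC, 1937 in oeLNC and 2006 in oeNC. Slc16a3, the lactate exporter MCT4, had 55.2 in kdLNC, 73.7 in kdNC, 106 in oeLNC and 115 in oeNC. In both genes, oeLNC and oeNC were higher than kdLNC and kdNC, and oeLNC and oeNC did not separate from each other (-0.051 and -0.12). Pdk1, a kinase that shuts pyruvate dehydrogenase off and is a HIF target, had 110.3 in kdLNC, 158 in kdNC, 252 in oeLNC and 189 in oeNC. A second Pdk1 probe set ran the other way in both pairs, at 0.34 and -0.69, and the last one above the limit gave 0.0015 and 0.36. Pdk3, a related kinase, had 96.1 in kdLNC, 137 in kdNC, 125 in oeLNC and 143 in oeNC.

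**Figure D2:**
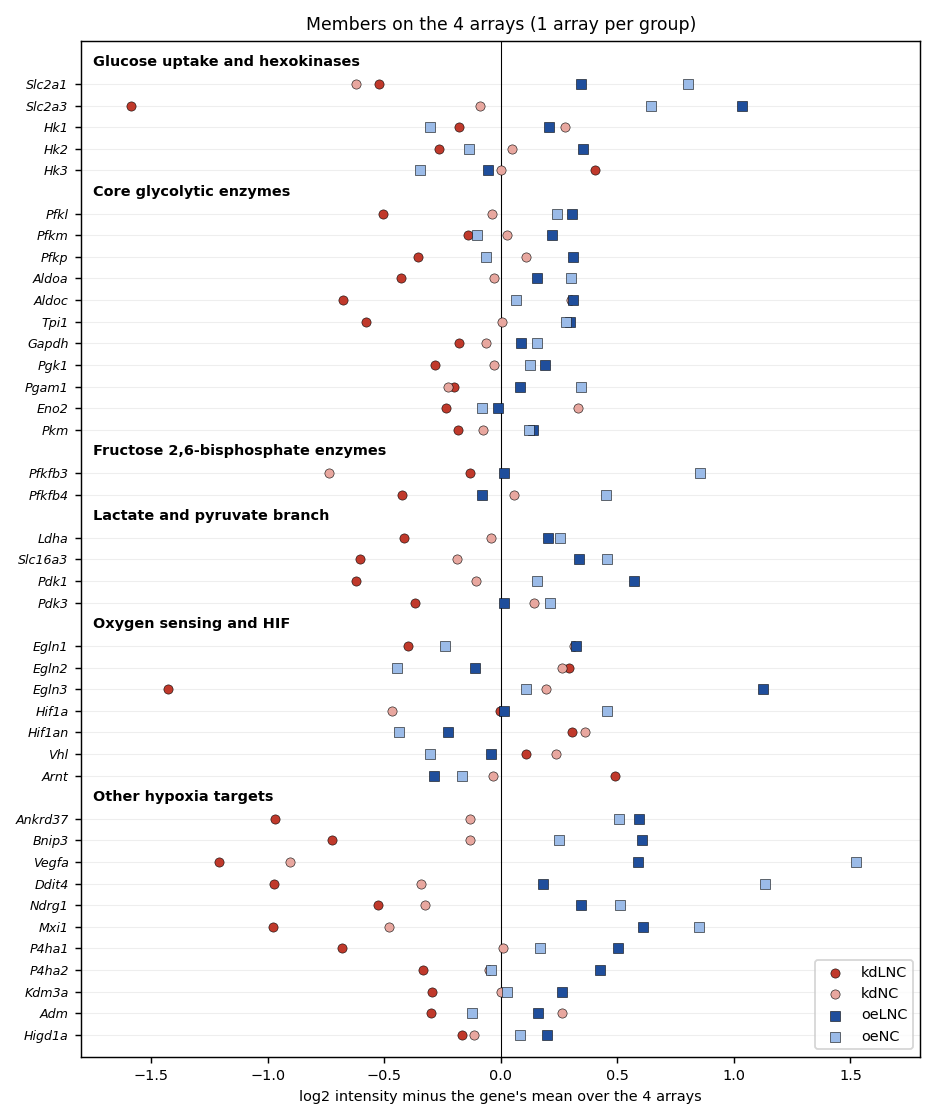
Level of each of the 40 members on the 4 arrays, as log2 intensity minus the mean of that gene over the 4 arrays, with genes down the page by role and 1 point per array (circles for kdLNC and kdNC, squares for oeLNC and oeNC, darker for the cultures with a virus aimed at the noncoding RNA). kdLNC is the leftmost point in 30 of the 40 genes.

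The other hypoxia targets were lower in kdLNC than in kdNC in all 11 genes (against 58.6% of all genes), with a median of -0.50. Past 1.5-fold were 4 of the 11 (36.4%, against 1.84% of all genes lower). Ankrd37, an ankyrin-repeat protein known as a HIF-1 target, had 110.5 in kdLNC, 197 in kdNC, 326 in oeLNC and 308 in oeNC, with kdLNC 1.79-fold below kdNC (-0.84). P4ha1, a subunit of the collagen prolyl hydroxylase, had 126 in kdLNC, 203 in kdNC, 285 in oeLNC and 226 in oeNC, a difference of -0.69 that its second probe set also gave (-0.70). Bnip3, a receptor for mitophagy, had 1203 in kdLNC, 1811 in kdNC, 3016 in oeLNC and 2362 in oeNC, a difference of -0.59. In these 3 genes kdLNC was the lowest array and oeLNC the highest, with oeLNC over oeNC at 0.085, 0.33 and 0.35 in the same order, all under 1.5-fold. P4ha1's second probe set gave -0.14 in that pair.

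Ddit4 and Vegfa ran otherwise in the overexpression pair. Ddit4, an inhibitor of mTORC1 that also answers to other stresses, had 150.4 in kdLNC, 233 in kdNC, 335 in oeLNC and 648 in oeNC. It was 1.55-fold lower in kdLNC than in kdNC (-0.63) and 1.93-fold lower in oeLNC than in oeNC (-0.95), so both cultures with a virus aimed at the noncoding RNA stood below their own controls. Vegfa, the angiogenic growth factor, had 74.1 in kdLNC, 91.5 in kdNC, 257 in oeLNC and 492 in oeNC. It was 1.91-fold lower in oeLNC than in oeNC (-0.93) and differed by -0.30 in the knockdown pair. The second Vegfa probe set, with 103 in kdLNC, 131 in kdNC, 171 in oeLNC and 169 in oeNC, did not separate the overexpression pair (0.02).

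Of the remaining targets, Mxi1, an antagonist of MYC, had 313 in kdLNC, 443 in kdNC, 942 in oeLNC and 1111 in oeNC. Ndrg1, a stress-response gene, had 265 in kdLNC, 305 in kdNC, 485 in oeLNC and 545 in oeNC. Both were higher in oeLNC and oeNC than in kdLNC and kdNC, and kdLNC was the lowest array in each. Kdm3a, a demethylase of histone H3 lysine 9, had 491 in kdLNC, 603 in kdNC, 723 in oeLNC and 614 in oeNC. Higd1a, a mitochondrial protein, had 626 in kdLNC, 650.4 in kdNC, 807 in oeLNC and 745 in oeNC. The hypotensive peptide gene Adm had 51.2 in kdLNC, 75.5 in kdNC, 70.3 in oeLNC and 57.9 in oeNC, and its second probe set, with 22.7 in kdLNC and 51.6 in kdNC, differed more in this pair (-1.19) than the brighter one (-0.56). P4ha2, the other collagen hydroxylase subunit here, was dim and had 11.7 in kdLNC, 14.2 in kdNC, 19.7 in oeLNC and 14.3 in oeNC.

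The 2 pairs share no array, so their directions can be set side by side. Lower in kdLNC than in kdNC and higher in oeLNC than in oeNC were 23 of the 40 members (57.5%), against 29.9% of all genes. Among these were Egln3, Egln1, Slc2a3, Aldoc, Ankrd37, Bnip3 and P4ha1, that is, 7 of the 8 members past 1.5-fold in the knockdown pair. Lower in both pairs were 10 members (25%, against 28.6% of all genes), with Ddit4, Vegfa, Mxi1, Ndrg1, Aldoa and Ldha among them. Higher in kdLNC and lower in oeLNC were 5, Slc2a1, Pfkfb3, Pgam1, Hif1a and Arnt (12.5%, against 23.9%), and higher in both were 2, Hk3 and Egln2 (5%, against 16.7%). These counts take every difference at its sign, however small. With each array centred on its median, 5 of the 40 members changed sign in oeLNC over oeNC. These 5, Pfkl, Tpi1, Pgk1, Eno2 and Pkm, were all among the 23. Ankrd37 was then at 0.016. The second probe sets of Egln1 and P4ha1 were below 0 in that pair (-0.13 and -0.14). Past 1.5-fold in both pairs in opposite directions were 2 genes of the 40 (5%), Egln3 and Pfkfb3, against 0.908% of all genes.

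**Figure D3:**
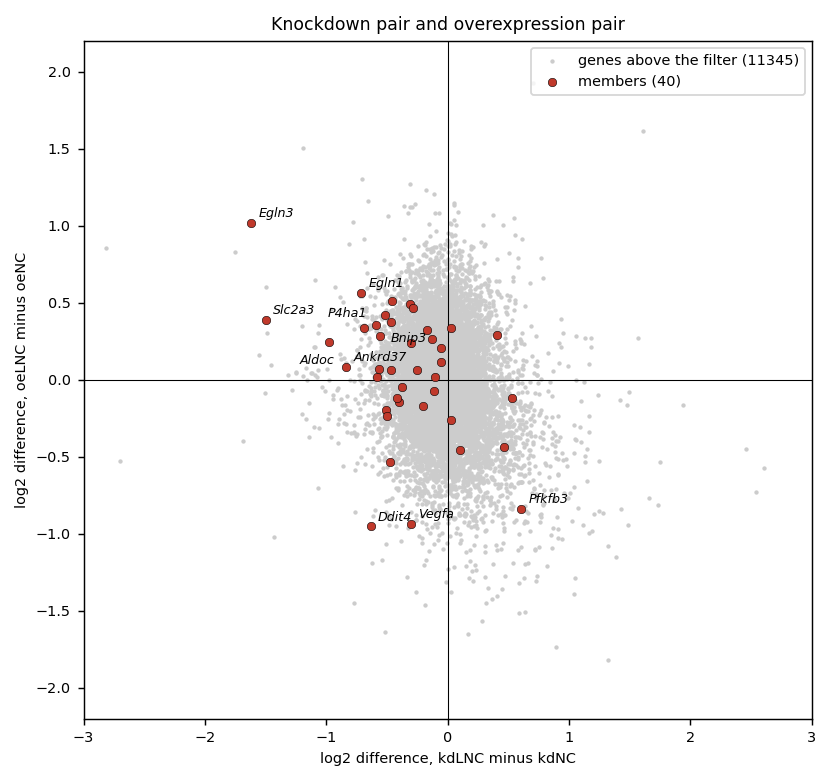
Log2 difference of kdLNC over kdNC (x axis) against that of oeLNC over oeNC (y axis), with the 40 members in red and the 11345 genes above the intensity limit in grey. Egln3 lies far to the upper left and Pfkfb3 to the lower right, and most members lie left of 0.

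Across all 4 arrays, kdLNC was the lowest in 30 of the 40 members (75%), against 30.3% of all genes. oeLNC was the highest in 18 (45%, against 21.6% of all genes) and oeNC in 14 (35%, against 28.6%). kdNC was the lowest in 4 (10%, against 15.7%), Slc2a1, Pfkfb3, Pgam1 and Hif1a, and the highest in 5 (12.5%, against 27.3%), Hk1, Eno2, Hif1an, Vhl and Adm. oeNC was the lowest in 5 (12.5%, against 27.6%), Hk1, Hk3, Egln2, Hif1an and Vhl. oeLNC was the lowest in 1, Arnt (2.5%, against 26.4%), and kdLNC the highest in 3, Hk3, Egln2 and Arnt (7.5%, against 22.5%). Set against oeNC instead of its own control, kdLNC was at least 1.5-fold lower in 19 members (47.5%), against 10.5% of all genes. At least 1.5-fold lower than in each of the 2 controls were 7 members (17.5%), against 0.864% of all genes, and these were Slc2a3, Aldoc, Egln3, Ankrd37, Bnip3, Ddit4 and P4ha1. Both comparisons use the same kdLNC array, so they are not separate evidence about it. Egln1 is not among the 7 because oeNC was nearly as low as kdLNC.

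The 2 control cultures also differed from each other in these genes. By at least 1.5-fold it was 12 members in the control pair, where 21.3% of all genes were past that fold. In the knockdown pair it was 9 members, where 4.09% of all genes were past it. oeNC was at least 1.5-fold higher than kdNC in 10 members (25%), against 9.09% of all genes, and lower in 2 (5%), Hif1an and Egln2, against 12.2%. By any amount 26 members were higher in oeNC and 14 lower, against 53.7% lower of all genes. By 2-fold, 5 members were higher in oeNC, against 2.96% of all genes, and 0 were lower, against 3.96%. Vegfa, with 492 in oeNC and 91.5 in kdNC, was 5.38-fold higher (log2 difference 2.43). The others were Pfkfb3 (1.59), Ddit4 (1.47), Slc2a1 (1.43) and Mxi1 (1.33). The 3 members at least 1.5-fold lower in oeLNC than in oeNC, Vegfa, Ddit4 and Pfkfb3, were all among these 5, and in each of them oeLNC was still above kdNC. Slc2a3 was higher in oeNC too (0.73), whereas Egln3 was nearly level (-0.087). The lentiviral vectors, and any difference in handling between the 2 experiments, cannot be told apart from these control differences.

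Probe sets are the one repeat measurement within an array, and 25 of the 40 members had several, 88 probe sets in all. Above the intensity limit, 21 members had 36 further probe sets. Of these 36, 25 (69.4%) had the sign of the brightest one in the knockdown pair, against 58.3% of the 7862 further probe sets of all genes. In the overexpression pair it was 24 (66.7%), against 58.0%, and between the controls 30 (83.3%), against 59.7%. Egln3, Slc2a3, Egln1 and P4ha1 kept their direction in kdLNC at every further probe set above the limit, and Ankrd37, Bnip3 and Ddit4 had a single probe set. The members with a further probe set of the other sign in that pair were Slc2a1, Pgk1, Tpi1, Pfkfb3, Pdk1, Hif1a, Hif1an and Arnt.

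**Figure D4:**
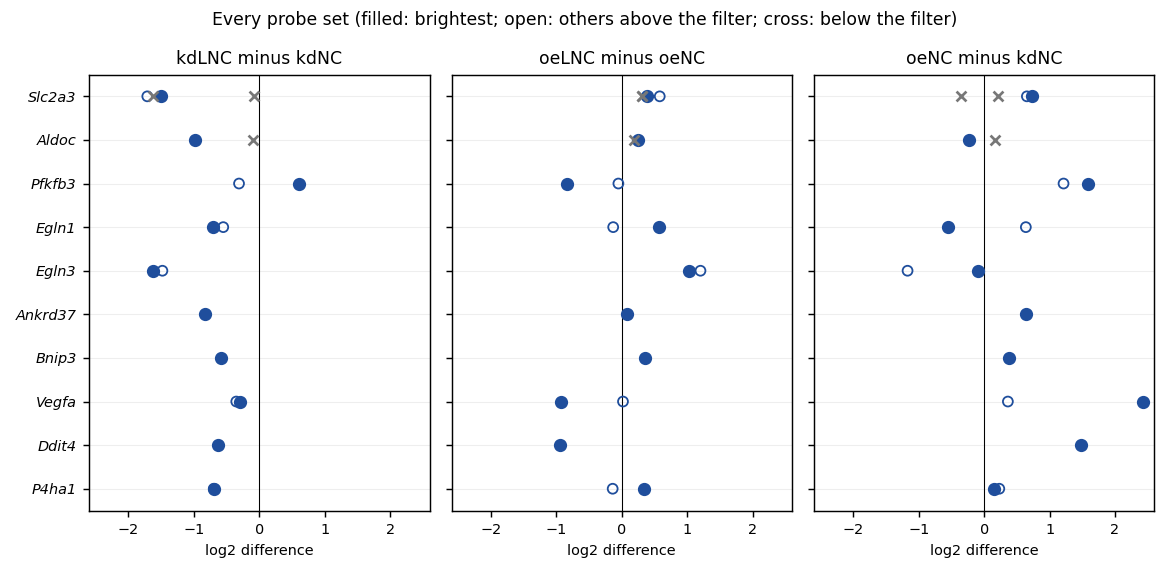
Log2 differences at every probe set of the 10 members past 1.5-fold in the knockdown or the overexpression pair, in 1 panel for each of the 3 pairs. The brightest probe set of each gene is filled, others above the intensity limit are open and those below it are crosses. Both Egln3 probe sets lie below -1.4 in the knockdown pair and above 1 in the overexpression pair, while those of Pfkfb3 lie on both sides of 0 in the knockdown pair.

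Of 34 measured further genes that hypoxia induces, 26 were lower in kdLNC than in kdNC by any amount (76.5%, against 58.6% of all genes), with a median of -0.12. At least 1.5-fold lower were 0, against 1.84% of all genes, though Rora and Ak4 (both -0.58) were just outside that limit. At least 1.5-fold higher were 2 (5.88%, against 2.25%). These 2 were Wsb1, a ubiquitin ligase adaptor with 406 in kdLNC, 217 in kdNC, 289 in oeLNC and 589 in oeNC, and Gpr35, a G protein-coupled receptor with 81.8 in kdLNC, 53.2 in kdNC, 57.9 in oeLNC and 54.2 in oeNC. kdLNC was the lowest array in 22 of the 34, against 30.3% of all genes. In oeLNC over oeNC the median of these genes was 0.18, with 1 of the 34 at least 1.5-fold lower (2.94%, against 5.26% of all genes) and 4 higher (11.8%, against 3.23%). Wsb1 was the lower one (-1.03), and Plod2, a collagen lysyl hydroxylase (0.64), and Ppp1r3c, a glycogen-targeting subunit of a phosphatase that lay below the intensity limit (0.89), were among the higher.

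Of 13 further isoenzymes and transporters of glycolysis, in the knockdown pair 3 were lower by at least 1.5-fold (23.1%, against 1.84% of all genes) and 1 was higher (7.69%, against 2.25%), with a median of -0.055. Adpgk, a hexokinase that uses ADP, had 61.4 in kdLNC, 129 in kdNC, 239 in oeLNC and 388 in oeNC. Ldhc, the lactate dehydrogenase of testis, had 52.3 in kdLNC, 116 in kdNC, 168 in oeLNC and 218 in oeNC. Both were lowest in kdLNC and highest in oeNC. Pgam2, the muscle phosphoglycerate mutase, was the last of the 3 (-0.59), and the lactate carrier Slc16a1, or MCT1, was the higher one (0.75), with 310.4 in kdLNC, 184 in kdNC, 147 in oeLNC and 172 in oeNC. A further list held 10 genes of pyruvate uptake into mitochondria, of pyruvate dehydrogenase and of its regulators. None of these, of 6 genes of the pentose phosphate pathway and of 10 of HIF degradation and coactivation passed 1.5-fold in this pair. Of all genes, 1.84% were lower and 2.25% higher by that fold, so for such short lists 0 is near those shares. The medians of these 3 lists were -0.046, -0.093 and 0.089 in that order. The largest of their differences there were 0.26 for Dld, a subunit of pyruvate dehydrogenase, -0.32 for Taldo1, the transaldolase, and 0.36 for Ep300, a coactivator of HIF. Of these 3 lists, Dld alone passed 1.5-fold in the overexpression pair (-0.67), against 8.50% of all genes.

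Cell type markers differed between the arrays as well, in an order that depended on the cell type. The 9 measured markers of mature neutrophils had a median difference of kdLNC over kdNC of -1.04, and Lcn2 and Mmp8 were the 2 not lower. Ltf, the secondary granule protein lactoferrin, had 127 in kdLNC, 828 in kdNC, 960.0 in oeLNC and 1385 in oeNC, and Camp, the cathelicidin precursor, had 1986 in kdLNC, 5629 in kdNC, 5730.2 in oeLNC and 6075 in oeNC. Summed over the 9 genes the intensity was 18191 in kdLNC, 26587 in kdNC, 26997 in oeLNC and 28774 in oeNC, which puts kdLNC lowest as in the members. Monocyte and macrophage markers, with Csf1r the brightest, summed to 4466, 4709.7, 5316 and 5392 in the same order of arrays. Gene by gene, the 7 monocyte and macrophage markers had a median of 0.0011 in kdLNC over kdNC. Of them, 3 were lower (42.9%, against 58.6% of all genes) and 4 higher, and F13a1 (0.68) alone passed 1.5-fold (14.3%, against 2.25% of all genes higher). Eosinophil markers summed to 1224, 2284, 1069 and 1183. All 4 of them were lower in kdLNC than in kdNC (median -0.72), 2 by at least 1.5-fold (50%, against 1.84% of all genes lower). B cell markers (3214, 3043, 1491 and 1612) were higher in kdLNC and kdNC than in oeLNC and oeNC. So were markers of mast cells and basophils (1859.8, 2229.7, 1179.8 and 957). Primary granule genes ran from 878 to 1129, and erythroid, T cell and stromal markers stayed at or below 206 on every array. Of the 6 primary granule genes, 5 were lower in kdLNC than in kdNC (83.3%, against 58.6% of all genes), with a median of -0.50. By at least 1.5-fold it was 2 (33.3%, against 1.84% of all genes lower). The cultures thus had the neutrophil and monocyte markers of MDSCs, and RNA of other lineages besides. The part of these markers in the results on glycolysis and hypoxia genes was not tested.

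The arrays themselves were alike in scale. The median log2 intensity of all probe sets lay between 4.17 and 4.24, and the highest intensity between 11778 and 12309. The 3′ over 5′ log2 ratio of the Gapdh control probe sets, a sign of RNA integrity, was 0.69 in kdLNC and 0.51 in kdNC, and 0.65 in oeLNC and 0.53 in oeNC. For beta-actin, it was 1.96 in kdLNC and 1.61 in kdNC, and 1.97 in oeLNC and 1.96 in oeNC. The part of this difference between kdLNC and kdNC in the results was not tested.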

How the data were processed

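Total RNA of 4 MDSC cultures was hybridised to Affymetrix whole-genome mouse arrays, 1 culture per group. The authors deposited a table of 45101 probe sets as linear intensity after RMA (background correction, quantile normalization and summary over probes), a method named in the submitters' processing notes without a version. Quantile normalization gives the arrays nearly the same distribution, so a change shared by most genes would not be seen. Gene symbols came from the platform annotation, by which 34958 probe sets had 1 symbol, 932 several and 9211 none. Only those with 1 symbol were used.

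Intensities were log2 transformed with nothing added, and differences were taken within kdLNC and kdNC, within oeLNC and oeNC, and between the controls. The methods name limma, which could not be fitted with 1 array per group. The number of arrays limits the precision. Every member is named with its values on the 4 arrays, those past 1.5-fold in full, and of each other pathway list up to 4 genes with the largest difference. The members and all gene lists were chosen with earlier results of these data known. Scripts ran in Python 3.11.15 with numpy 2.4.6, pandas 2.3.3 and statsmodels 0.14.6, and were tested on simulated data. Alternatives were other scalings, probe set rules, controls, filters, folds and 16 added before log2.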

Additional observations from a re-analysis of the deposited data

How the results depend on the processing

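No paired analysis was possible because there was 1 array per group, and likewise leaving out an array gave no value. A gene's difference was taken to move when it changed by more than the SD between probe sets of 1 gene, a median past 0.1 and a count past 1.5 times. For single members 772 values stayed within these limits, 98 moved and 7 reversed. The median of all members in kdLNC over kdNC stayed below 0 in each alternative. The differences of oeLNC over oeNC depended most on the control: centring each array on its median turned the sign of 5 of 40 members there, the control of the knockdown pair that of 19.

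With kdLNC set against oeNC, the median was -0.56, with 19 members lower (against 10.5% of all genes), 4 higher (against 12.2%) and 9 past 2-fold (against 7.72%). With oeLNC set against kdNC the median was 0.28, with 1 member lower (against 11.5% of all genes), 10 higher (against 4.99%) and 3 past 2-fold (against 3.38%), and Vegfa (1.49), Pfkfb3 (0.75), Ddit4 (0.52) and the median of the fructose 2,6-bisphosphate enzymes (0.31) reversed, as did that of oxygen sensing (-0.25). Pfkfb3 reversed in kdLNC over oeNC (-0.98). Against the mean of both controls, kdLNC was lower in 16 members (against 4.34% of all genes), 6 past 2-fold (against 1.61%), with Pfkfb3 at -0.19, and oeLNC had a median of 0.18, 0 members lower (against 3.91% of all genes), 2 higher (against 1.57%) and 0 past 2-fold (against 0.291%), with Vegfa at 0.28 and oxygen sensing at -0.0083. These follow from the distance between the controls.

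Centring on the median gave 2 members past 2-fold in oeLNC over oeNC (against 1.15% of all genes). Both were lower, Ddit4 (-1.02) and Vegfa (-1.004), while Egln3 fell short (0.95). Quantile normalization and loess each gave 2 members at least 1.5-fold higher in that pair, against 4.25% and 3.42% of all genes. Each also gave 3 lower, against 4.27% and 4.54%. With all probe sets of a gene averaged, 0 members were higher in kdLNC (against 1.27% of all genes) and 1 was lower in oeLNC (against 3.32%). In oeNC, 4 were then lower than in kdNC (against 9.17%). With 16 added, 0 were higher in kdLNC (against 1.54% of all genes). With probe sets of possible multiple matches left out, Slc2a3 in oeNC over kdNC reversed (-0.35). It was then read from a probe set below the intensity limit, with intensities of 4.59 to 14.1. The brighter Slc2a3 probe sets left out gave 0.73 and 0.65. The cause of the other changes was not tested.

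At 2-fold, by construction, 2 members were lower and 0 higher in kdLNC, against 0.353% and 0.450% of all genes. In oeLNC 0 were lower, against 0.723%. In oeNC, 0 were lower and 5 higher than in kdNC, against 3.96% and 2.96%. At 3-fold, 1 was lower and 0 higher in kdLNC, against 0.044% and 0.071% of all genes. In oeLNC 0 were lower or higher, against 0.053% of all genes in either direction. In oeNC, 0 were lower and 2 higher, against 0.811% and 0.714%. With 1.5-fold in place of the methods' 2-fold, 9, 4 and 12 members were past it in the knockdown, overexpression and control pairs. The shares of all genes were 4.09%, 8.50% and 21.3% in the same order.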
